A study of Mus musculus with 14 samples.

Results

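The genes described here are 33 mouse genes that make, move or spend UDP-sugars and that build or break down glycogen. They were chosen by name, from their known biochemistry, and their rows were read in the bulk expression tables, which hold 35171 usable genes, and in the single-cell matrix, which holds 28692. All 33 were listed in both kinds of file. They fall into 7 roles. There are 6 genes that make or interconvert UDP-sugars, 4 that build glycogen, 3 that break it down and 3 glucosyltransferases that spend UDP-glucose. The others are 8 enzymes of hexosamine and sialic acid metabolism, 3 hyaluronan synthases and 6 Slc35 genes. The Slc35 genes are grouped by family name, and the nucleotide-sugar carriers among them sit in the Golgi or endoplasmic reticulum membrane.

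The study asked about UDP-glucose as an extracellular signal to stellate cells of the liver, pericytes that store vitamin A, through its receptor P2Y14. UDP-glucose cultures (n = 3) were stellate cells with the strain label Balbc, plated for 5 h in DMEM with 10% FBS, moved to 0.1% FBS and then kept for 24 h with 10 µM UDP-glucose. The titles of these 3 samples name UDP as the agent, whereas their descriptions and treatment labels name UDP-glucose, the name used here. Control cultures (n = 3) were cells of the same strain label kept for 24 h without it, and no cell sort is described for either culture. Quiescent HSC libraries (n = 4) came from unplated stellate cells of LratCre+, TdTom+ mice in C57BL/6J, sorted for vitamin A and for the TdTom label that LratCre switches on, a Cre driven by the promoter of the retinol acyltransferase gene. Whole liver libraries (n = 3) came from uninjured livers with the same strain label as the quiescent cells. No liver was injured, and the sources used here give neither age nor sex. The single-cell library (n = 1) was made from all cell types of 1 normal C57BL/6 liver. Nothing in the labels says which libraries came from separate animals or cultures, so the p-values below measure the spread between these libraries, which may be technical.

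UDP-glucose is made from glucose 1-phosphate and UTP by the pyrophosphorylase encoded by Ugp2, and it is the parent of most other UDP-sugars of the cell. Glycogen synthase takes its glucose for glycogen, UDP-glucose dehydrogenase oxidises it to UDP-glucuronate for glycosaminoglycans and for drug conjugation, and other enzymes use it to glucosylate lipids and unfolded glycoproteins. In the liver, hepatocytes store glycogen with liver isoforms of synthase and phosphorylase that differ from those of muscle and brain, and stellate cells are known for making matrix proteoglycans and hyaluronan.

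The depth behind the bulk values is unknown, because TPM does not carry it. The labels were checked against cell type genes. Lrat, the retinol acyltransferase of stellate cells, averaged 65.4, 87.2, 1089 and 1.05 TPM in UDP-glucose cultures, control cultures, quiescent HSC and whole liver. Acta2, the smooth muscle actin of activated stellate cells, averaged 680.3, 264.1, 12.0 and 1.48 TPM in the same order of groups. All 17 listed stellate markers averaged at or above 1 TPM in the quiescent libraries and in both cultures, and 13 did so in whole liver. Their sum was 10951 to 12437 TPM in UDP-glucose cultures and 13065 to 13816 TPM in control cultures. It was 74557 to 82687 TPM in quiescent HSC and 90.5 to 210 TPM in whole liver. The quiescent libraries also held RNA of neighbouring cells. The sum of 15 sinusoidal endothelial markers was 588 to 1496 TPM in quiescent HSC, against 62.6 to 145 TPM in whole liver, and Clec4f, a Kupffer cell gene, averaged 32.9 TPM in quiescent HSC and 20.4 TPM in whole liver. In control cultures Clec4f and the endothelial gene Stab2 were listed at 0 in every library, and the endothelial marker sum was 125 to 138 TPM. Hepatocyte markers summed to 460 to 580 TPM in quiescent HSC, of which Trf supplied 86.4%, against 73017 to 103120 TPM in whole liver. In whole liver, major urinary protein genes took 15.4 to 32.8% of TPM and mitochondrial genes 18.5 to 22.4%, against at most 0.00432% and 5.67% in quiescent HSC.

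Summed over the 33 genes, UDP-glucose cultures held 1076 to 1135 TPM, control cultures 1120 to 1178 TPM, quiescent HSC 739 to 765 TPM and whole liver 588 to 812 TPM. The low value of the liver range belongs to the library with 32.8% of TPM in major urinary protein genes. Within these totals, the isoforms of several enzymes differed between groups.

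**Figure D1:**
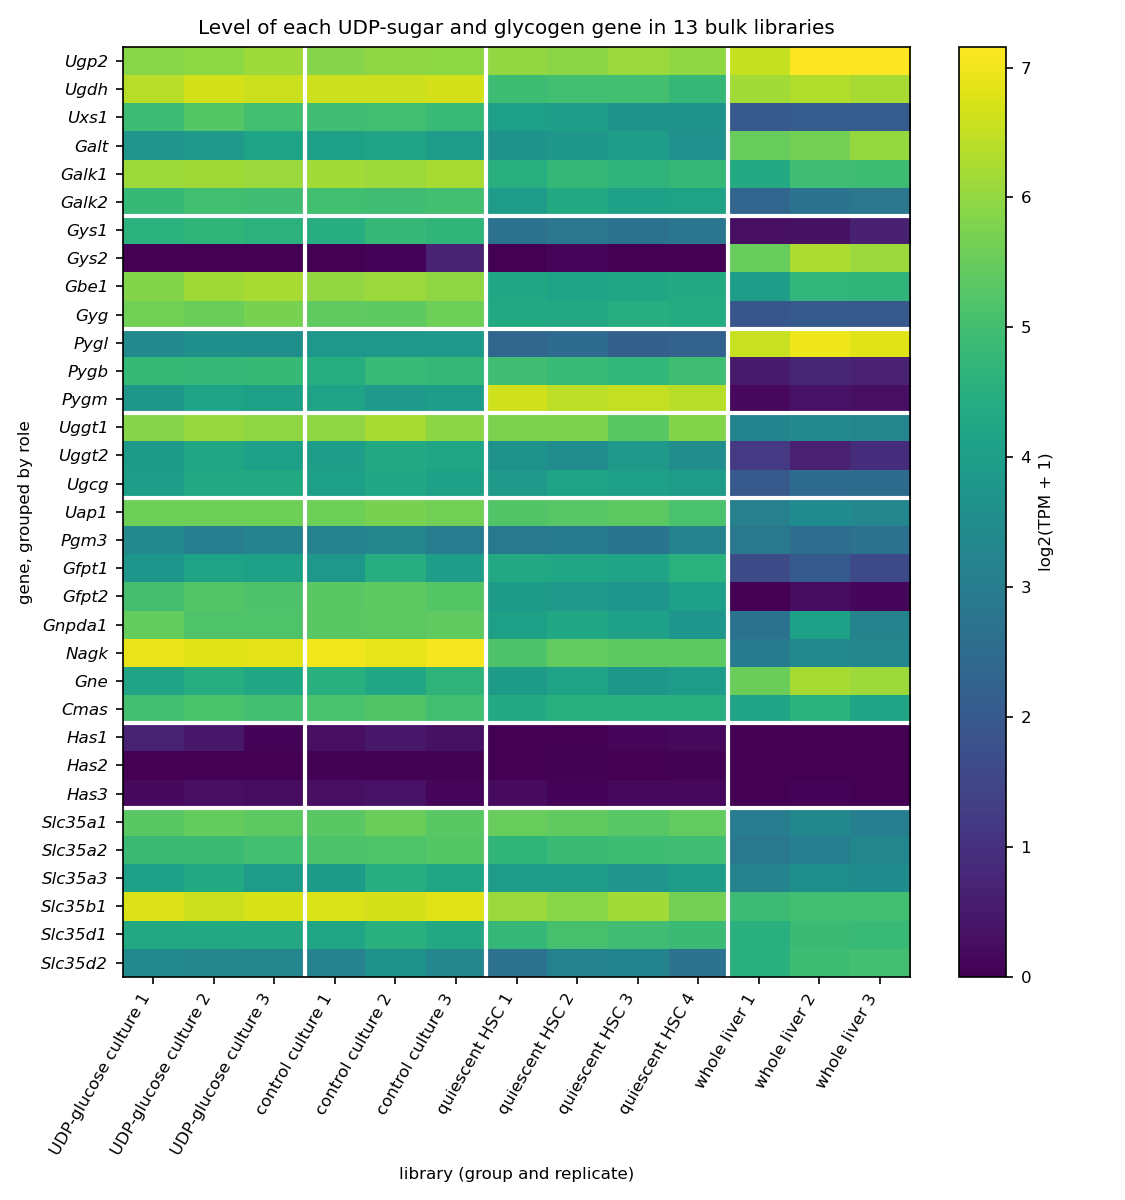
Colour gives log2(TPM + 1) of each of the 33 genes (rows, in blocks by role) in each of the 13 bulk libraries (columns, in blocks by group). Gys2 and Pygl are bright in the whole liver block, Pygm is brightest in the quiescent HSC block, and the 3 hyaluronan synthases are dark in every library.

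A gene was tested in a comparison when its mean over the compared libraries was at least 1 TPM. It was called when limma's adjusted p (Benjamini-Hochberg over all tested genes) was below 0.05 and, for the quiescent and the culture comparison, when the log2 fold change was also at least 1 in size. Fold changes are differences of log2(TPM + 1), which understates the change of low genes. Between quiescent HSC and whole liver, 30 of the 33 genes were tested, of which 15 were called higher and 6 lower in quiescent HSC. Among all 12643 tested genes 67.0% were called higher and 10.9% lower, and the median log2 fold change was 1.25 for the 30 genes and 1.62 for all genes. The groups did not overlap for 24 of the 30, beside 91.1% of all tested genes, and 25 had an unadjusted p below 0.05, beside 92.9%. Major urinary protein and mitochondrial genes took a large part of liver TPM, as given above. Rescaled without these genes, the median of all genes was 1.10, with 52.4% called higher and 14.5% lower. When libraries were scaled by the median of gene ratios instead, the median of all genes moved to 0.04, and 5 of the 30 genes were called higher and 14 lower, beside 3373 higher and 3299 lower calls over all genes in place of 8466 and 1381. The 5 that were still called higher were Pygm (5.13), Pygb (2.96), Gfpt2 (2.90), Uggt2 (1.33) and Gys1 (1.29), and the calls of the other 10 were lost. Those 10 were Uxs1, Galk2, Gyg, Uggt1, Ugcg, Uap1, Gfpt1, Nagk, Slc35a1 and Slc35a2. For some genes, changes between quiescent HSC and whole liver are therefore also given below relative to the median of all genes. By TPM, Gfpt1 stood 0.97, Gyg 0.78, Slc35a1 0.65, Nagk 0.48 and Uap1 0.32 above that median. Slc35b1 stood 0.63 and Slc35a3 1.14 below it. Between control culture and quiescent HSC, 29 genes were tested, of which 10 were called higher and 1 lower in culture, beside 18.6% higher and 13.2% lower over all 12537 tested genes. The median was 0.53 for these genes and 0.26 for all. The groups did not overlap for 20 of the 29, beside 70.0% of all tested genes, and 22 had an unadjusted p below 0.05, beside 73.3%. Median-of-ratios scaling made the split over all genes 1547 higher and 2029 lower in place of 2338 and 1652, and took the calls of Uxs1 (log2 0.84) and Gyg (0.80) below the fold limit. Culture and quiescent libraries also differ in deposited table, mouse strain and cell sort, which cannot be told apart from culture. Quiescent HSC and whole liver libraries differ in deposited table and cell sort as well, which cannot be told apart from the difference between stellate cells and liver. Both comparisons use the quiescent HSC libraries, so their values are not independent. Because these are whole populations, more cells of a type and more RNA per cell cannot be told apart.

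The 3 glycogen phosphorylases, which release glucose 1-phosphate from glycogen, were all called between quiescent HSC and whole liver, 2 higher and 1 lower. Over all tested genes 67.0% were called higher and 10.9% lower, so this count alone does not set the 3 genes apart. Pygm, the muscle isoform, had 98.7, 86.1, 88.9 and 83.2 TPM in quiescent HSC, against 0.141, 0.283 and 0.227 TPM in whole liver. Its groups did not overlap, its log2 fold change was 6.21 ± 0.11 (SE, adjusted p = 3.38e-12, limma), and it stood 4.59 above the median of all genes. In control culture Pygm had 16.4, 13.6 and 15.1 TPM, all below the 4 quiescent HSC libraries, a log2 fold change of -2.49 ± 0.09 (adjusted p = 5.37e-08, limma). It was the member called lower in culture. Pygl, the liver isoform, had 4.19, 4.63, 3.51 and 3.75 TPM in quiescent HSC, against 93.8, 125.1 and 112.1 TPM in whole liver (log2 -4.47 ± 0.13, adjusted p = 9.34e-11, limma). In control culture it had 13.1, 13.0 and 13.6 TPM, so that every culture library lay above every quiescent one, and it was called higher (log2 1.51 ± 0.12, adjusted p = 4.82e-06, limma). Pygb, the brain isoform, had 29.9, 27.8, 25.9 and 30.2 TPM in quiescent HSC, against 0.423, 0.672 and 0.568 TPM in whole liver (log2 4.24 ± 0.12, adjusted p = 4.7e-11, limma). Control cultures had 21.0, 27.5 and 26.2 TPM of Pygb, which overlapped the quiescent range, and no change was called (log2 -0.19 ± 0.11, adjusted p = 0.149, limma).

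Shares within an enzyme family do not depend on how libraries are scaled against each other. Of the summed phosphorylase TPM, Pygm made up 28.9% ± 2.35 in UDP-glucose cultures, 28.3% ± 3.76 in control cultures (SD, n = 3 each), 73.3% ± 1.82 in quiescent HSC (n = 4) and 0.192% ± 0.0386 in whole liver (n = 3). Pygb made up 51.1%, 46.7%, 23.4% and 0.495%, and Pygl 20.1%, 24.9%, 3.31% and 99.3%, in the same order of groups. The summed phosphorylase level averaged 53.2 TPM in control cultures, 121.7 TPM in quiescent HSC and 111.1 TPM in whole liver, with Pygm the main isoform in quiescent HSC and Pygl in liver.

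**Figure D2:**
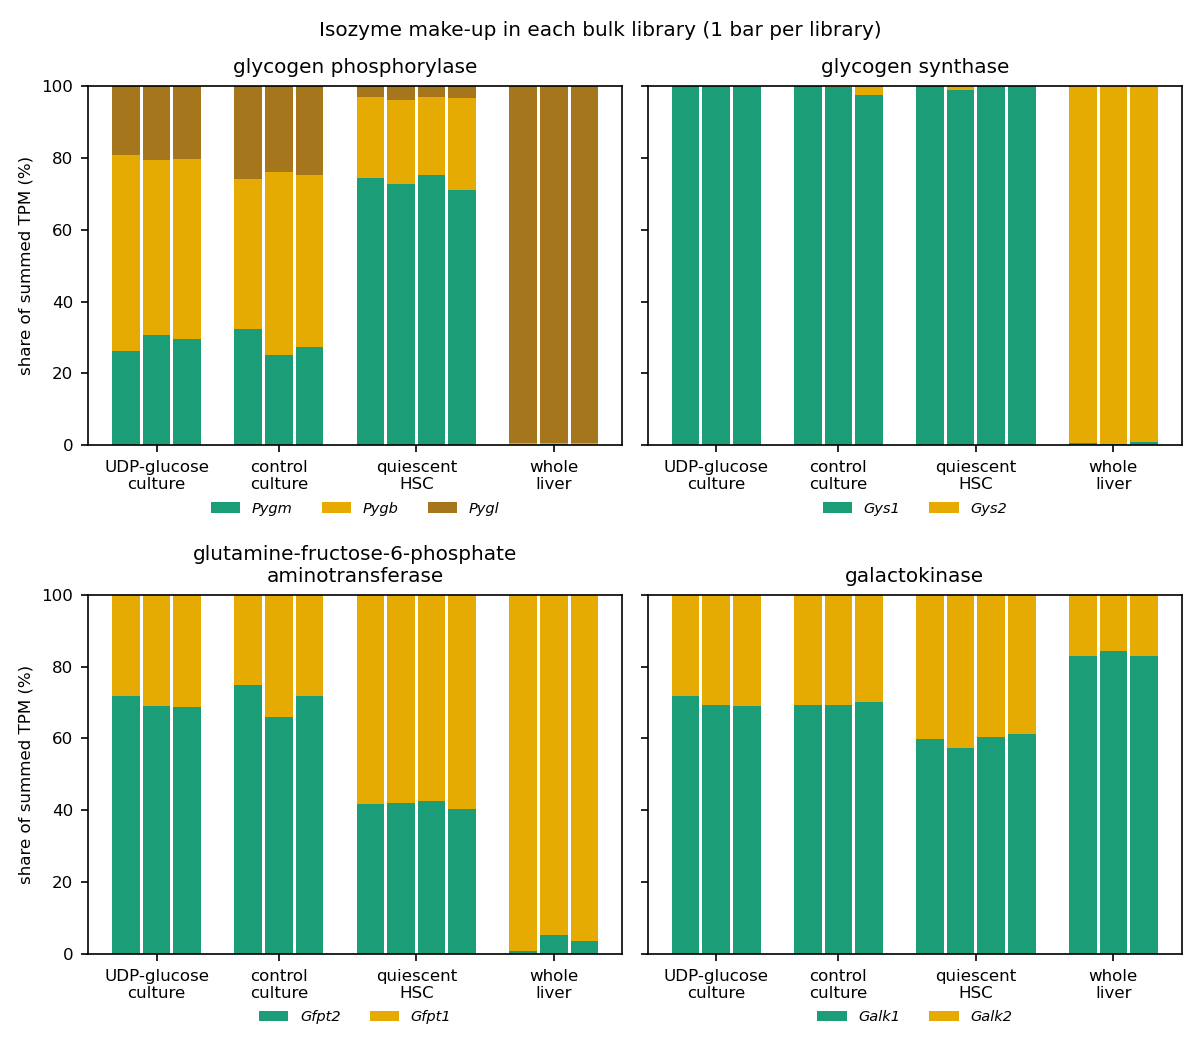
Each bar is 1 bulk library, and its segments give each isoform's percent of the family's summed TPM, for phosphorylases, glycogen synthases, glutamine-fructose-6-phosphate aminotransferases and galactokinases, with groups from left to right UDP-glucose culture, control culture, quiescent HSC and whole liver. Pygm averages 73.3% in quiescent HSC and 28.3% in control culture, and Gys1 and Gys2 fill nearly the whole bar in stellate cells and in liver.

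Glycogen synthase adds the glucose of UDP-glucose to the growing chain, and its isoforms also differed between stellate cells and liver. Gys1, the muscle isoform, had 5.37, 6.15, 5.32 and 5.99 TPM in quiescent HSC, against 0.236, 0.254 and 0.547 TPM in whole liver (log2 2.32 ± 0.14, adjusted p = 2.74e-08, limma), which is 0.70 above the median of all genes. Control cultures had 20.8, 26.0 and 24.8 TPM of Gys1, all above the quiescent libraries (log2 1.89 ± 0.11, adjusted p = 9.61e-07, limma), the widest called rise of the 29 genes tested in that comparison. Gys2, the liver isoform, was listed at 0, 0.0706, 0 and 0 TPM in quiescent HSC, against 44.1, 75.9 and 66.3 TPM in whole liver (log2 -5.92 ± 0.17, adjusted p = 7.56e-11, limma). It was listed at 0 in all UDP-glucose cultures and at 0, 0.0489 and 0.636 TPM in control cultures, below the level needed for a test. Gys1 thus made up 100%, 99.1%, 99.7% and 0.562% of glycogen synthase TPM in UDP-glucose cultures, control cultures, quiescent HSC and whole liver.

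The other 2 tested builders of glycogen were also called higher in culture. Gbe1, the branching enzyme, had 62.5, 67.4 and 61.3 TPM in control cultures, against 18.3, 16.6, 18.7 and 19.6 TPM in quiescent HSC (log2 1.75 ± 0.08, adjusted p = 2.31e-07, limma). Against whole liver, which had 15.2, 24.99 and 24.7 TPM, quiescent Gbe1 overlapped and was not called (log2 -0.20, adjusted p = 0.273, limma), which is 1.82 below the median of all genes, and under median-of-ratios scaling it was called lower, at -2.04. Gyg, glycogenin, the protein primer of glycogen, averaged 42.9 ± 3.63 TPM in control cultures and 20.01 ± 0.883 TPM in quiescent HSC (log2 1.06, adjusted p = 5.12e-06, limma). Quiescent HSC were called higher than whole liver, which averaged 2.96 ± 0.175 TPM (log2 2.41, adjusted p = 1.94e-09, limma). The culture call of Gyg sat at the fold limit, with a log2 fold change of 0.99 without control culture replicate 3. All 3 tested builders were called higher in control culture than in quiescent HSC, beside 18.6% of all tested genes, or 2 of 3 under median-of-ratios scaling, which put Gyg at 0.80. Their summed level with Gys2 was 125 to 134 TPM in control cultures and 41.9 to 45.8 TPM in quiescent HSC.

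**Figure D3:**
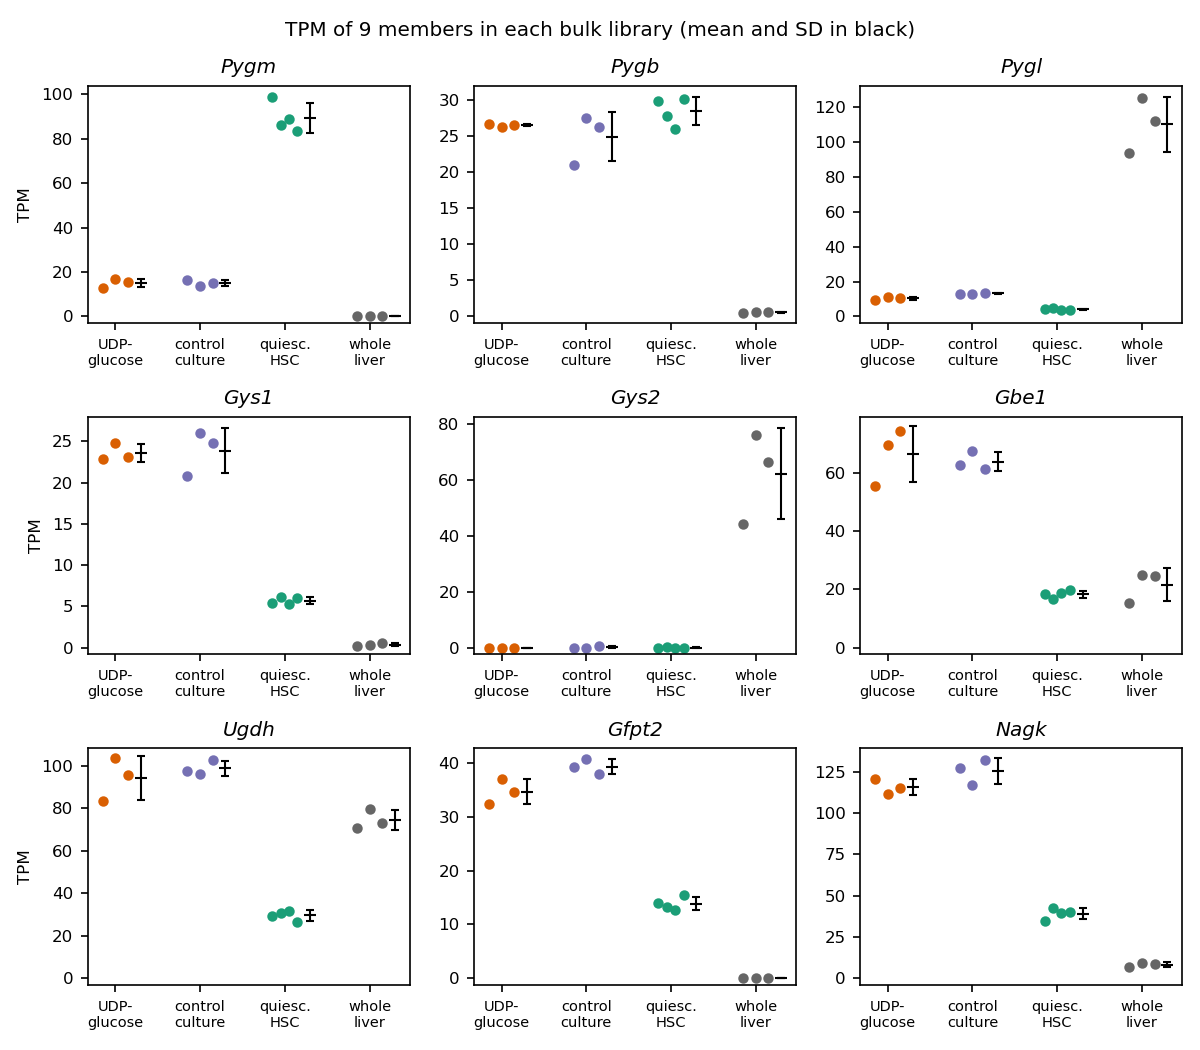
Points are TPM in each bulk library for 9 genes, with the mean and SD of each group in black beside them, and groups run from left to right UDP-glucose culture, control culture, quiescent HSC and whole liver. Pygm is highest in quiescent HSC, Pygl and Gys2 are highest in whole liver, and Gys1, Gbe1, Gfpt2 and Nagk are highest in the cultures.

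RefSeq promoters (build GRCm38.p6) matched 28 of the 33 genes by symbol. Gys2, the liver synthase, had no matching promoter entry. The phosphorylases and Gys1 are among the genes that carry the isoform difference between stellate cells and liver. The 250 bases before the start are therefore printed for the 3 phosphorylases and for Gys1. They are written 5′ to 3′ on the gene's strand, with capitals at each match, on either strand, to a searched motif.
Pygm, chr19:6384158-6384407, plus strand: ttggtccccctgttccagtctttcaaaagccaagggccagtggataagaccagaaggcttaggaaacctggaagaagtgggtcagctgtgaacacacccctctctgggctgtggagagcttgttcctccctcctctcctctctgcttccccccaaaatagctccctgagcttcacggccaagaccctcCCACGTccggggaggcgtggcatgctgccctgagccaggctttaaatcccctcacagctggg
Pygb, chr2:150786546-150786795, plus strand: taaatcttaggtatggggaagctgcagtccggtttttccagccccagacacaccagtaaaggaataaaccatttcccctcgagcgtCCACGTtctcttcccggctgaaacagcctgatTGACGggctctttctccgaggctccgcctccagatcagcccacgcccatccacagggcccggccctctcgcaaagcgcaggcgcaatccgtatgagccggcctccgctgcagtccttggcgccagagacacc
Pygl, chr12:70227684-70227933, minus strand: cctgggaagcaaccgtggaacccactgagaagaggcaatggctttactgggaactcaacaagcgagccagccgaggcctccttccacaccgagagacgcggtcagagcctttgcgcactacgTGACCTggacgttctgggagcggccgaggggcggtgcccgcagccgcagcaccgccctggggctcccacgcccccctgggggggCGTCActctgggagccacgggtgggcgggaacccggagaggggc
Gys1, chr7:45434589-45434838, plus strand: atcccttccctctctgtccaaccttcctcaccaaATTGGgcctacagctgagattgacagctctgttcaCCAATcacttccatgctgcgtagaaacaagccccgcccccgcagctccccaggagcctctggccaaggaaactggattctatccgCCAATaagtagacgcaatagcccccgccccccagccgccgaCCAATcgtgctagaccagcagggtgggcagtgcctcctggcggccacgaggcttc
The capitals mark the CCAAT box (CCAAT), the HNF4 core (AGGTCA), the cAMP response core (TGACG) and the core of the unfolded protein response element (ACGTGG). Gys1 holds 4 CCAAT boxes, at positions -216, -181, -96 and -55 from the start, and Pygm, Pygb and Pygl hold none. CCAAT occurs in 33.8% of all 32851 RefSeq mouse promoters of this length. Pygl holds an HNF4 core at -128, a motif found in 14.02% of promoters, and a cAMP response core at -44, found in 17.8%. The Pygl stretch lies inside the gene's span in the GRCm38 annotation (70190811 to 70231488), so the RefSeq start used here is an internal one. Pygm holds the unfolded protein response core at -62 and Pygb at -164, a motif found in 6.91% of promoters, and Pygb also holds a cAMP response core at -132. Motifs for TEAD (GGAATG), AP-1 (TGANTCA), the E-box (CACGTG) and HNF1 (GTTAAT) had no match in these 4 stretches. The CACGTG motif can overlap the core ACGTGG, as it does in Galk1. A match is a description of the letters and shows no binding.

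Among the genes that make or interconvert UDP-sugars, Ugdh was called higher in culture and Ugp2 was not called. Ugp2 averaged 59.7 ± 2.31 TPM in control cultures and 62.7 ± 2.72 TPM in quiescent HSC (log2 -0.07, 95% interval -0.22 to 0.08). Whole liver averaged 124 ± 29.1 TPM, and quiescent Ugp2 was below each liver library (log2 -0.95, adjusted p = 0.000159, limma), short of the fold limit, at -1.16 without whole liver replicate 1. Ugdh, which makes UDP-glucuronate, had 97.5, 96.2 and 102.7 TPM in control cultures, against 29.5, 30.9, 31.7 and 26.3 TPM in quiescent HSC (log2 1.71 ± 0.08, adjusted p = 2.35e-07, limma). Whole liver had 70.8, 79.9 and 73.3 TPM of Ugdh, so quiescent HSC were lower than liver as well (log2 -1.31 ± 0.11, adjusted p = 6.19e-07, limma). Uxs1, which turns UDP-glucuronate into the UDP-xylose that starts proteoglycan chains, averaged 29.7 TPM in control cultures, 13.5 TPM in quiescent HSC and 3.13 TPM in whole liver. It was called higher in culture (log2 1.09) and in quiescent HSC against liver (1.80), where it stood 0.18 above the median of all genes. The galactose enzymes differed among themselves. Galt, the uridylyltransferase, averaged 15.9 TPM in control cultures, 12.7 TPM in quiescent HSC and 52.4 TPM in whole liver, and was called lower in quiescent HSC than in liver (log2 -1.96). The galactokinase Galk1 had 70.3, 68.2 and 73.6 TPM in control cultures, against 21.8, 26.2, 24.4 and 26.3 TPM in quiescent HSC (log2 1.48, adjusted p = 7.31e-07, limma). In whole liver Galk1 had 19.6, 30.2 and 29.5 TPM and overlapped quiescent HSC (log2 -0.08). Galk2, a kinase that prefers N-acetylgalactosamine, had 31.0, 30.3 and 31.4 TPM in control cultures, against 14.6, 19.5, 16.0 and 16.6 TPM in quiescent HSC (log2 0.86, under the fold limit). Whole liver had 4.05, 5.61 and 6.10 TPM of Galk2. Quiescent Galk2 was called higher than liver (log2 1.51) but lay 0.11 below the median of all genes, and the sign turned to -0.23 under median-of-ratios scaling.

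The enzymes that spend UDP-glucose on other acceptors were called higher in quiescent HSC than in whole liver, 3 of 3, beside 67.0% of all tested genes. In culture 0 of 3 were called, beside 18.6% higher and 13.2% lower over all tested genes. Under median-of-ratios scaling 1 of the 3 calls against liver was kept, that of Uggt2, beside 26.7% called higher over all tested genes. With 3 genes, these counts cannot be told apart from the shares of all genes. Uggt1, the sensor that reglucosylates misfolded glycoproteins in the endoplasmic reticulum, had 61.3, 73.9 and 58.7 TPM in control cultures, 53.2, 53.5, 39.3 and 56.3 TPM in quiescent HSC, and 8.45, 9.43 and 8.61 TPM in whole liver. Its log2 fold change was 2.38 against liver, or 0.54 and under the fold limit with median-of-ratios scaling, and 0.35 in culture. Uggt2, its paralogue, had 15.02, 19.2 and 17.5 TPM in control cultures, 11.6, 10.5, 13.4 and 10.4 TPM in quiescent HSC, and 1.30, 0.563 and 0.917 TPM in whole liver (log2 2.71 against liver, adjusted p = 1.9e-08, limma). Uggt2 supplied 20.1%, 21.1%, 18.8% and 9.52% of the pair in UDP-glucose cultures, control cultures, quiescent HSC and whole liver. Ugcg, the ceramide glucosyltransferase that starts most glycosphingolipids, averaged 16.7 TPM in control cultures, 15.2 TPM in quiescent HSC and 4.14 TPM in whole liver. Its rise against liver (log2 1.67) was 0.05 above the median of all genes and turned to -0.033 under median-of-ratios scaling.

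In hexosamine metabolism, which makes UDP-N-acetylglucosamine, the isoforms of the first and rate-limiting enzyme differed between groups. Gfpt2 had 39.3, 40.7 and 37.8 TPM in control cultures, against 13.97, 13.3, 12.6 and 15.6 TPM in quiescent HSC (log2 1.44 ± 0.09, adjusted p = 1.33e-06, limma). Whole liver had 0.0186, 0.169 and 0.0757 TPM of Gfpt2, which placed quiescent HSC 3.77 ± 0.13 higher on the log2 scale (adjusted p = 2.15e-10, limma). Gfpt1, its paralogue, had 13.2, 21.0 and 14.9 TPM in control cultures, against 19.4, 18.4, 17.0 and 22.9 TPM in quiescent HSC, with overlap and no call (log2 -0.25). In whole liver Gfpt1 had 2.16, 3.07 and 1.99 TPM (log2 2.59 for quiescent HSC against liver). Gfpt2 was 69.9%, 70.8%, 41.7% and 3.24% of the pair in UDP-glucose cultures, control cultures, quiescent HSC and whole liver. Further down the pathway, Pgm3, the acetylglucosamine phosphomutase, averaged 7.89, 6.73 and 5.57 TPM in control cultures, quiescent HSC and whole liver, with no call in either comparison. Its exons share 28.3% of their bases with Dop1a, and the sources used here do not say whether strand was used to assign reads. Uap1, which joins the sugar to UTP, averaged 49.2, 37.0 and 8.94 TPM in the same order of groups (log2 0.41 in culture and 1.94 against liver). A salvage and a catabolic enzyme were also called higher in culture. Nagk, the N-acetylglucosamine kinase, averaged 125 ± 7.66 TPM in control cultures, 39.2 ± 3.38 TPM in quiescent HSC and 8.41 ± 1.46 TPM in whole liver (log2 1.66 in culture, adjusted p = 4e-07, and 2.10 against liver, adjusted p = 4.88e-08, limma). Gnpda1, the glucosamine-6-phosphate deaminase that runs the pathway backwards, averaged 40.2 ± 1.27 TPM in control cultures and 15.7 ± 2.40 TPM in quiescent HSC (log2 1.31, adjusted p = 1.27e-05, limma). Whole liver had 5.34, 16.0 and 8.20 TPM of Gnpda1. Without whole liver replicate 2, the highest of these, Gnpda1 was called higher in quiescent HSC, at 1.12 in place of 0.73. With all libraries it stood 0.89 below the median of all genes. Under median-of-ratios scaling it was called lower, at -1.05, so its direction against liver depends on the setting.

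Of the 2 sialic acid enzymes, Gne was called lower in quiescent HSC than in liver and Cmas was not called. Gne, the epimerase and kinase that begins sialic acid synthesis from UDP-N-acetylglucosamine, had 13.9, 17.0, 13.0 and 14.5 TPM in quiescent HSC, against 45.8, 74.2 and 67.7 TPM in whole liver (log2 -2.005 ± 0.17, adjusted p = 4.73e-07, limma). Control cultures had 22.3, 18.1 and 24.2 TPM, a log2 fold change of 0.53 under the fold limit. Cmas, which activates sialic acid to its CMP form, averaged 33.5 TPM in control cultures, 21.4 TPM in quiescent HSC and 19.1 TPM in whole liver. Its log2 fold changes were 0.62 in culture and 0.17 against liver, neither called. Against liver, Gne stood 3.63 and Cmas 1.46 below the median of all genes. Under median-of-ratios scaling Cmas was called lower, at -1.68.

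The 3 hyaluronan synthases, which polymerise UDP-glucuronate and UDP-N-acetylglucosamine at the cell surface, were near the floor everywhere. The highest value of Has1 in any library was 0.626 TPM, in a UDP-glucose culture, that of Has3 was 0.275 TPM and that of Has2 was 0.0299 TPM, both in a control culture. None was tested in any comparison.

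Of the 6 Slc35 genes, none was called in culture, beside 18.6% higher and 13.2% lower over all tested genes. Against liver, 2 were called higher and 1 lower in quiescent HSC, beside 67.0% higher and 10.9% lower over all tested genes. Under median-of-ratios scaling these 2 higher calls, of Slc35a1 and Slc35a2, were lost. Slc35a3 (-1.31) and Slc35d1 (-1.71) were then called lower, beside 26.7% higher and 26.1% lower over all tested genes. Slc35a1, the CMP-sialic acid carrier, averaged 41.0 TPM in control cultures, 41.8 TPM in quiescent HSC and 7.92 TPM in whole liver (log2 2.27 against liver). Slc35a2, the UDP-galactose carrier, averaged 35.9, 28.2 and 7.51 TPM in the same order of groups (log2 1.78 against liver, or -0.019 under median-of-ratios scaling). Slc35a3, the UDP-N-acetylglucosamine carrier, averaged 17.4, 13.8 and 9.67 TPM. Slc35b1, of the endoplasmic reticulum, averaged 108 ± 5.03, 61.2 ± 9.07 and 30.1 ± 1.12 TPM, the highest of the 6 genes in each of these groups. It is placed here by family name, not as an established carrier of nucleotide sugars. Its log2 fold changes of 0.82 in culture and 0.99 against liver both stayed under the fold limit. Slc35d1, a carrier of UDP-glucuronate and UDP-N-acetylgalactosamine, averaged 19.7 TPM in control cultures, 29.4 TPM in quiescent HSC and 26.2 TPM in whole liver (log2 -0.56 in culture). Slc35d2 averaged 9.48, 6.85 and 27.8 TPM and was called lower in quiescent HSC than in liver (log2 -1.88).

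**Figure D4:**
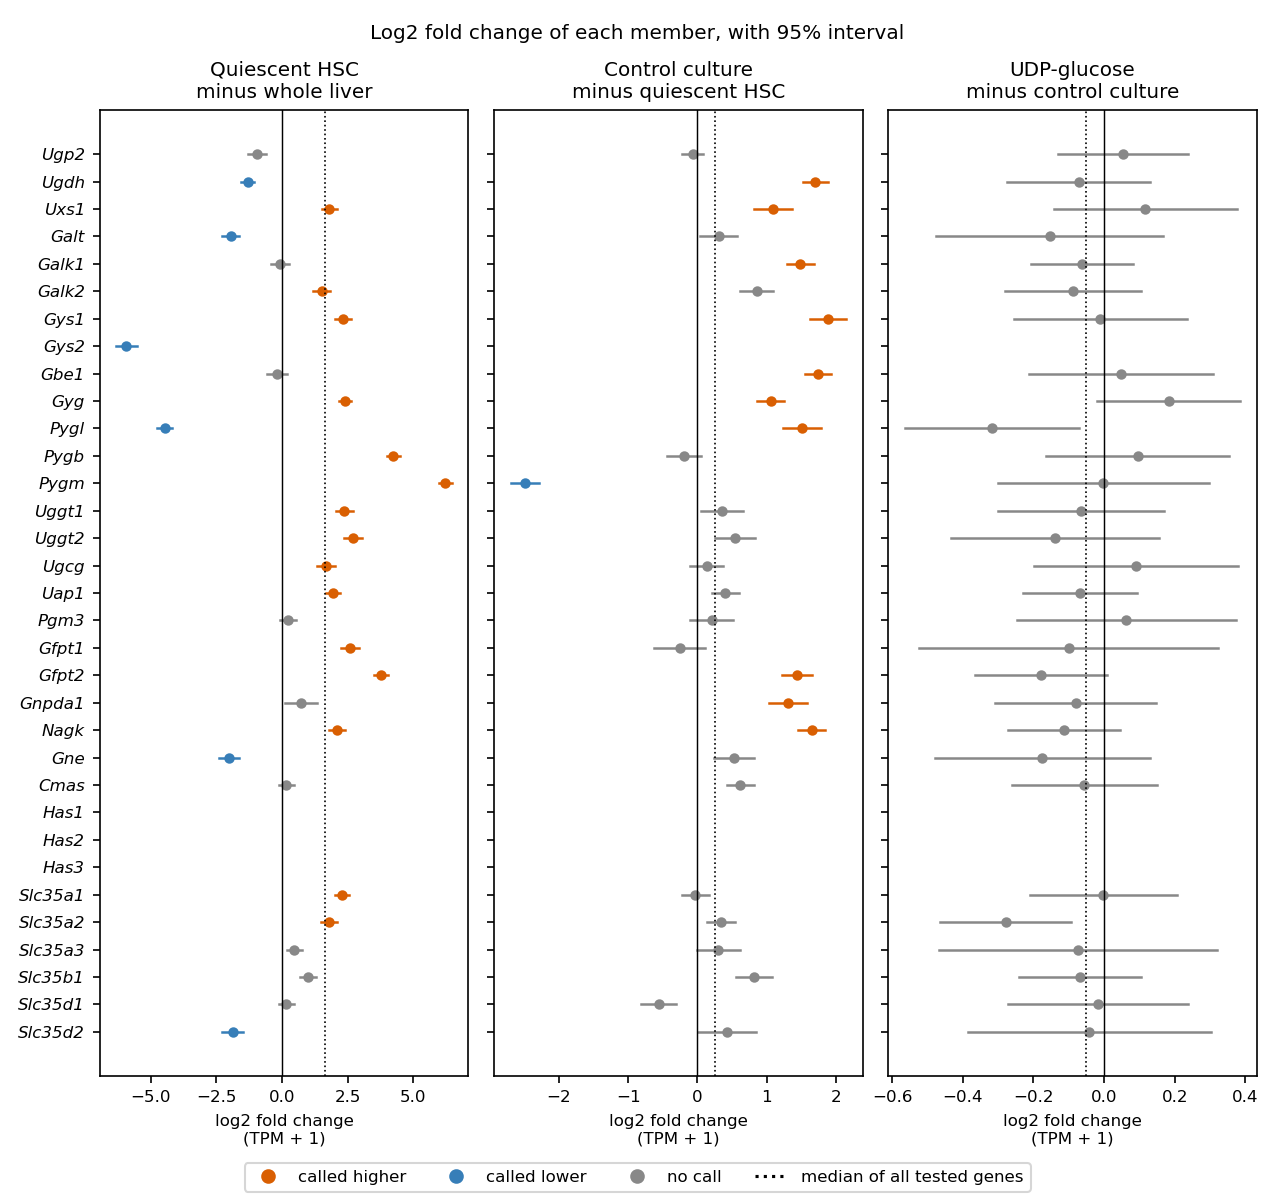
Points give the log2 fold change of TPM + 1 and lines its 95% interval from limma for each tested gene, in panels for quiescent HSC minus whole liver, control culture minus quiescent HSC and UDP-glucose culture minus control culture, whose horizontal scales differ. The dotted line is the median of all tested genes, which is 1.62 in the first panel, and in the last panel no gene is coloured as called.

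Adding UDP-glucose to the medium changed none of these genes past the threshold. Of the 29 tested, 0 were called at an adjusted p below 0.05 (limma), beside 0.609% of all 12161 tested genes (0.428% higher and 0.181% lower), and the smallest adjusted p was 0.273. At an unadjusted p below 0.05 there were 2 of the 29, beside 10.0% of all tested genes. The log2 fold changes ran from -0.32 to 0.18, and no 95% interval reached below -0.56 or above 0.39. Ugp2, the enzyme that makes UDP-glucose, had 58.3, 60.1 and 67.8 TPM in UDP-glucose cultures, against 57.2, 61.8 and 60.001 TPM in control cultures, with overlap (log2 0.05, 95% interval -0.13 to 0.24). Gys1 had 22.9, 24.8 and 23.1 TPM in UDP-glucose cultures, against 20.8, 26.0 and 24.8 TPM in control cultures (log2 -0.01, 95% interval -0.26 to 0.23).

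The largest fall was that of Pygl. It had 9.45, 11.1 and 10.8 TPM in UDP-glucose cultures, against 13.1, 13.0 and 13.6 TPM in control cultures, a log2 fold change of -0.32 ± 0.11 (unadjusted p = 0.0182, adjusted p = 0.357, limma). All 3 treated libraries lay below all 3 controls. Slc35a2 had 28.2, 28.6 and 31.5 TPM in UDP-glucose cultures, against 35.0, 35.2 and 37.6 TPM in control cultures, also without overlap (log2 -0.28 ± 0.08, unadjusted p = 0.00898, adjusted p = 0.273, limma). Gfpt2 was the other tested gene whose groups did not overlap, with 32.3, 37.0 and 34.6 TPM in UDP-glucose cultures, against 39.3, 40.7 and 37.8 TPM in control cultures (log2 -0.18, adjusted p = 0.522, limma). These are 3 of 29 tested genes, beside 16.3% of all tested genes. Has2, not tested, was listed at 0 in the treated libraries and at 0.0233 to 0.0299 TPM in the controls. Gbe1 had 55.5, 69.4 and 74.3 TPM and Ugdh 83.4, 103.6 and 95.8 TPM in UDP-glucose cultures, and both ranges enclosed that of the control cultures. Pygm had 12.9, 16.7 and 15.7 TPM and Pygb 26.7, 26.3 and 26.6 TPM in UDP-glucose cultures, against the control values given above, and neither differed past the threshold (log2 -0.0017 and 0.09). The same held for Galk1 with 67.6, 68.9 and 66.5 TPM, Galk2 with 26.7, 30.6 and 29.97 TPM, Uggt1 with 57.4, 65.4 and 61.7 TPM, Uggt2 with 13.9, 17.3 and 15.3 TPM, Gfpt1 with 12.6, 16.7 and 15.7 TPM, and Gne with 17.1, 20.9 and 18.7 TPM.

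The single-cell library places these genes in liver cell classes. It holds 12101368 unique molecular identifiers (UMIs) in 5063 barcodes, of which 4808 were kept. Counts were summed over each class of cells, named from its markers, and are given as CPM, the UMIs of a gene scaled to the UMI total of the class, with an exact 95% Poisson interval that covers counting error only. There is 1 library, so no test was made. At least 10 UMIs were found for 30 of the 33 genes. The hepatocyte-like class had the highest CPM for 9 of the 30, and the stellate-like class for 2. How many of all genes each class heads was not counted, so these numbers cannot be read as particular to the 30 genes. Cholangiocyte-like cells, 7 in number, headed another 4 on 1 to 3 UMIs each. Free RNA was present, since Alb, a hepatocyte gene, was seen in 42.3% of T cell-like cells, at 225 CPM, against 99.6% of hepatocyte-like cells, at 17105 CPM.

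Hepatocyte-like cells (491 cells, median 1861 UMIs) carried the liver isoforms. Gys2 was at 69.5 CPM (56.6 to 84.6) there, against 0.862 CPM in stellate-like cells, on 1 UMI, and at most 5.32 CPM in any other named class. Pygl was at 116 CPM (99.2 to 135) in hepatocyte-like cells, against 6.04 CPM (2.43 to 12.4) in stellate-like cells, while Kupffer-like cells, the liver macrophages, held 46.8 CPM. Ugp2 was at 227 CPM (203 to 253) in hepatocyte-like cells and 57.8 CPM (44.8 to 73.4) in stellate-like cells. Ugdh was at 185 CPM (163 to 209) in hepatocyte-like cells and 27.6 CPM (18.9 to 39.0) in stellate-like cells. Gbe1, Gne, Slc35d1, Slc35d2 and Galt were the other genes with their highest CPM in hepatocyte-like cells, at 80.0, 67.5, 88.3, 43.1 and 40.3 CPM, against 38.8, 14.7, 27.6, 6.04 and 11.2 CPM in stellate-like cells. For Ugdh, Gys2, Gbe1, Slc35d1 and Slc35d2 the interval stood clear of that of the next class. Gys1, which had 31 UMIs in the whole library, had 0 UMIs in hepatocyte-like cells, too few to place it. A count of 0 leaves room for 0.611% of these cells to carry a UMI and sets no limit on the cells that express the gene. A mitochondrial maximum of 10% in place of 20% left 382 hepatocyte-like cells, in which Pygl was at 80.5 CPM, Slc35d1 at 39.0 CPM, Ugdh at 155 CPM and Ugp2 at 262 CPM.

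Stellate-like cells (345 cells, median 3170 UMIs) were the class with the most Pygm, at 24.1 CPM (16.0 to 34.9) on 28 UMIs, against 0.695 CPM in hepatocyte-like cells on 1 UMI and 7.86 CPM (2.55 to 18.3) in vein endothelial-like cells, whose interval overlapped. Pygm was seen in 8.12% of stellate-like cells, against 0.870% of T cell-like cells (median 2501 UMIs) as a measure of background. With each cell thinned to 1000 UMIs these shares were 2.04% and 0%. Slc35a1 was the other gene with its highest CPM in stellate-like cells, at 42.3 CPM (31.3 to 55.9). Pygb was at 24.1 CPM in stellate-like cells and 2.78 CPM in hepatocyte-like cells, but 67.0 CPM (51.5 to 85.8) in Kupffer-like cells. Gys1 gave 6 UMIs and Gfpt2 3 UMIs in stellate-like cells, too few to place them.

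Nagk and Gnpda1 were higher in endothelial-like and Kupffer-like cells than in stellate-like cells. Nagk was at 154 CPM (142 to 167) in sinusoidal endothelial-like cells and 129 CPM in Kupffer-like cells, against 67.3 CPM (53.2 to 83.9) in stellate-like cells. Gnpda1 was at 115 CPM in Kupffer-like cells and 98.5 CPM in sinusoidal endothelial-like cells, against 40.5 CPM (29.8 to 53.9) in stellate-like cells. The cultures in which both genes were called higher than in quiescent HSC had lower endothelial and Kupffer marker sums than quiescent HSC (for 13 Kupffer markers 325 to 364 TPM in control cultures, against 4547 to 5531 TPM in quiescent HSC, of which Fcna supplied 93.2%). The part of those cells in the culture comparison was not tested.

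**Figure D5:**
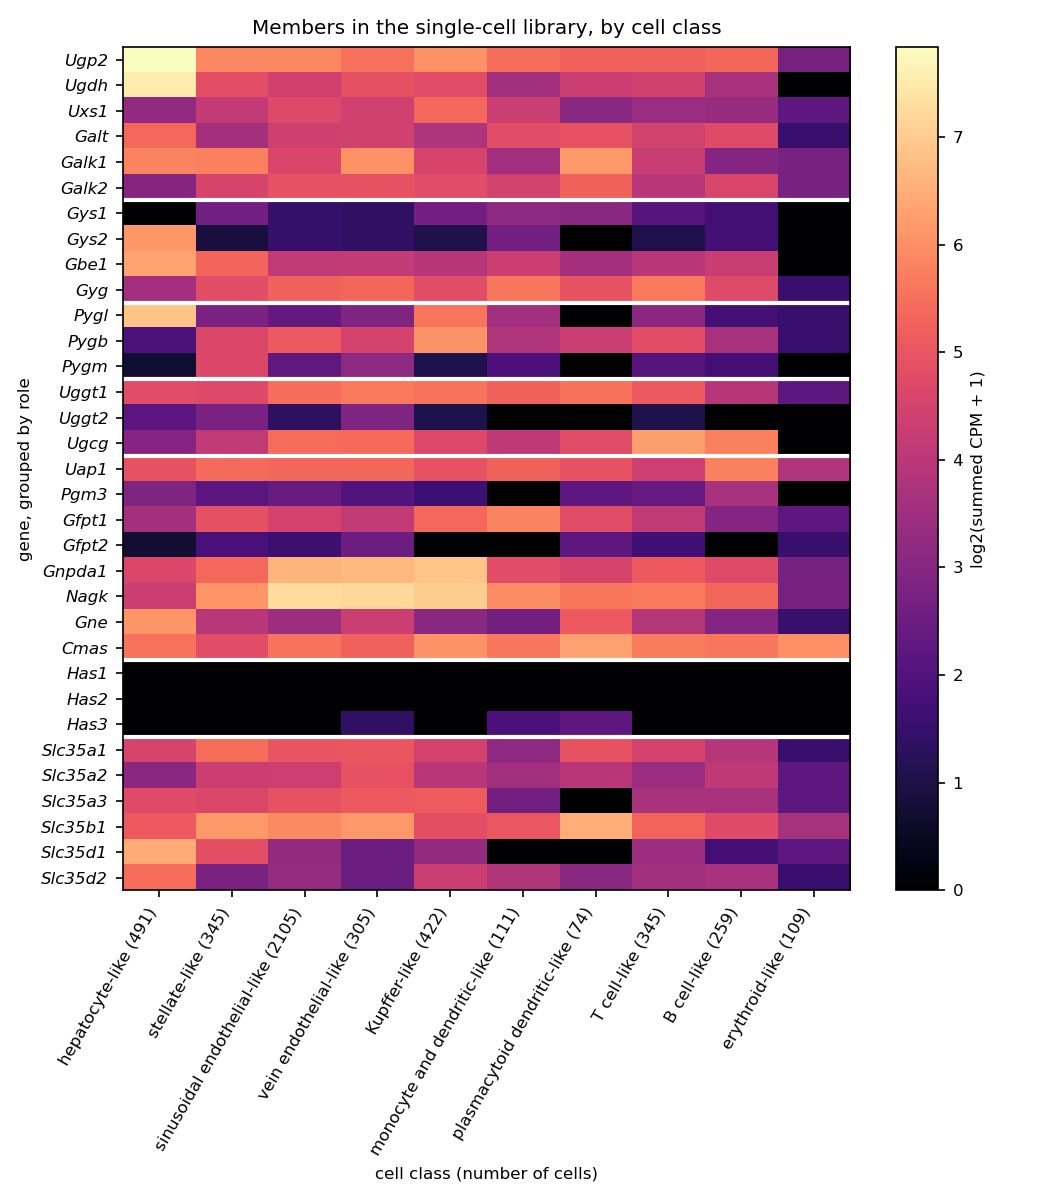
Colour gives log2(summed CPM + 1) of each gene (rows, in blocks by role) in the 10 named classes with over 50 cells (columns, with the number of cells) of the single-cell library. Ugp2, Ugdh, Gys2, Pygl, Gne and Slc35d1 are brightest in hepatocyte-like cells, Nagk in endothelial-like cells, and Has1 and Has2 are at 0 throughout.

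Hepatocyte-like cells fell into 2 clusters that differed in these genes. One, of 156 cells (median 2555 UMIs, 13.1% mitochondrial), held 172 CPM of Pygl, 155 CPM of Slc35d1, 102 CPM of Gne and 240 CPM of Ugdh. The other, of 335 cells (median 1607 UMIs, 2.64% mitochondrial), held 61.7, 23.3, 34.3 and 132 CPM of the same genes. Ugp2 ran the other way, with 188 CPM in the smaller cluster and 266 CPM in the larger one, and Gys2 was at 80.4 and 59.0 CPM with overlapping intervals. The mitochondrial share moved with the cluster, and its part in these differences was not tested.

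A further 159 genes of the surrounding pathways were counted from 8 lists. Between quiescent HSC and whole liver 139 were tested, of which 78 were called higher and 32 lower in quiescent HSC, or 39 and 56 under median-of-ratios scaling, beside 67.0% higher and 10.9% lower over all tested genes, or 26.7% and 26.1% under that scaling. The lists of glycosaminoglycan chain makers and of glucuronosyltransferases differed in direction. Both lists also hold enzymes that do not use UDP-glucuronate. Of 20 tested glycosaminoglycan chain makers 18 were called higher and 0 lower, or 11 and 2 under median-of-ratios scaling. An example is Chpf, a chondroitin-polymerising factor, with 134 ± 5.54 TPM in quiescent HSC and 0.376 ± 0.191 TPM in whole liver. Of 14 tested genes of the glucuronosyltransferase list, which holds detoxifying enzymes of hepatocytes, 14 were called lower under both scalings. Ugt2b5, from this list, was at 0.119 ± 0.0681 TPM in quiescent HSC and 529 ± 41.0 TPM in whole liver. The other glycogen enzymes and regulators held 16 genes called higher and 7 called lower of 26 tested, or 7 and 9 under median-of-ratios scaling, a share called higher that is near the 67.0% and 26.7% of all tested genes. Hk1, a hexokinase of most tissues, was at 56.7 TPM in quiescent HSC and 0.408 TPM in whole liver, while G6pc, the glucose-6-phosphatase that lets hepatocytes release glucose, was at 0.0294 and 130.3 TPM. Pgm1 and Pgm2, the phosphoglucomutases next to Ugp2 that were added to the named genes after their values were seen, went opposite ways, with 16.6 TPM of Pgm1 in quiescent HSC and 64.9 TPM in whole liver, and 22.7 and 1.79 TPM of Pgm2.

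Between control culture and quiescent HSC, 122 of the 159 were tested, of which 20 were called higher and 21 lower, beside 18.6% higher and 13.2% lower over all tested genes. Other hexosamine and sialic acid enzymes were called higher in 6 and lower in 2 of 21. Uap1l1, a paralogue of Uap1, averaged 219.5 ± 29.7 TPM in control cultures and 13.2 ± 3.89 TPM in quiescent HSC, and Renbp, which turns N-acetylglucosamine into N-acetylmannosamine, 214 ± 4.06 and 30.6 ± 3.21 TPM. Of 24 tested other glycogen enzymes and regulators, 3 were called higher and 2 lower. From that list, Slc2a1, the glucose carrier GLUT1, averaged 120.3 ± 0.472 TPM in control cultures and 36.1 ± 5.24 TPM in quiescent HSC. Of 11 tested genes of hyaluronan turnover 0 were called higher and 8 lower, beside the same 18.6% and 13.2% and with the same counts under median-of-ratios scaling, among them the endothelial receptors Stab2, at 0 TPM in control cultures and 32.1 ± 17.0 TPM in quiescent HSC, and Lyve1, at 0.0762 and 16.1 TPM. These 2 move with the endothelial marker sums given above, and they are themselves among those markers.

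With UDP-glucose, 114 of the 159 were tested and 1 was called. Alpl, an alkaline phosphatase of the cell surface that can split nucleotides, averaged 62.4 ± 6.60 TPM in UDP-glucose cultures and 107 ± 8.42 TPM in control cultures (log2 -0.77, adjusted p = 0.0224, limma). The call was lost without control culture replicate 1 or 3 and without UDP-glucose culture replicate 1 or 2, where the adjusted p ran from 0.0802 to 0.126. P2ry14, the receptor of UDP-glucose, averaged 265.6 ± 12.2 TPM in UDP-glucose cultures and 204.5 ± 12.2 TPM in control cultures (log2 0.38, adjusted p = 0.0649, limma). In quiescent HSC it was at 131.6 ± 4.78 TPM, against 0.341 ± 0.166 TPM in whole liver.

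In the GRCm38 annotation the 33 genes lie on 19 chromosomes. Gys2 (chromosome 6, 142422613 to 142473109, minus strand) and Cmas (chromosome 6, 142756686 to 142775714, plus strand) are 283576 bases apart, and Gys2 was called lower in quiescent HSC than in liver while Cmas was not called.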

How the data were processed

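RNA was measured in 13 bulk libraries and 1 single-cell library. The authors deposited TPM per gene in 3 tables (quiescent HSC, whole liver, both cultures). The submitters' processing notes name bcl2fastq 2.19, kallisto 0.44.0, DESeq2, Cell Ranger and the builds GRCm38 and mm10, without roles; the sources used here do not state strand use. Single-cell values, as deposited, are UMI counts per gene and barcode.

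The 33 genes, the 159 pathway genes, the roles and the tests were chosen with earlier results of these data known. Rows with dates for symbols (26 of 35197, up to 0.319% of TPM) were dropped. No libraries of a group were identical (Pearson r 0.992 to 0.995 within groups). limma 3.58.1 (R 4.3.3) was fitted to log2(TPM + 1) with a variance trend, over genes averaging 1 TPM or more, on the compared libraries alone, and was tested on simulated data. Tests were two-sided. Values in every library were given for isoform families above 1 TPM and for the 3 largest called changes each way. Of other pathway genes, those named came from the 2 largest called changes each way per list with at least 5 TPM, apart from Pgm1, Pgm2, Lyve1 and P2ry14, which were added after their values were seen.

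Barcodes with at least 500 UMIs, 200 genes and at most 20% mitochondrial UMIs were kept and clustered with scanpy 1.11.5 in Python 3.11.15 (2000 variable genes, 30 components, 15 neighbours, Leiden resolution 1) into 22 clusters, 18 of them named from fixed markers as 12 classes. No doublet caller was run. With 1 library, no barcodes could be shared between libraries.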

Additional observations from a re-analysis of the deposited data

Results flagged for a closer look

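Gys1 made up 98.9% of glycogen synthase TPM in quiescent HSC replicate 2, against 100% in each of the other 3 quiescent libraries. Because those 3 sit at the ceiling of 100%, any Gys2 value above 0 in 1 library would be listed here. The 1.14% that is missing came from Gys2, at 0.0706 TPM. Of 29 gene levels and 10 isoform shares looked at in the 4 quiescent libraries this was the only one listed, where chance gives about 1 in 20 groups.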

How the results depend on the processing

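No paired analysis was possible because the library codes give no replicate number shared between groups. Direction was compared wherever a change was called under either setting. Between quiescent HSC and whole liver, median-of-ratios scaling gave 5 of the 33 genes higher and 14 lower (15 and 6 by TPM) and 39 and 56 of the other pathway genes (78 and 32 by TPM). Quantile normalisation gave 5 and 13, and 42 and 52. Over all tested genes 26.7% were called higher and 26.1% lower under median-of-ratios scaling, and 28.1% and 23.3% under quantile normalisation. Median-of-ratios scaling turned the sign of Galk2 (-0.23), Ugcg (-0.033), Pgm3 (-1.44), Gnpda1 (-1.05), Cmas (-1.68), Slc35a2 (-0.019), Slc35a3 (-1.31) and Slc35d1 (-1.71), and quantile normalisation that of Galk2 (-0.22), Ugcg (-0.066), Pgm3 (-1.46), Cmas (-1.43), Slc35a3 (-1.23) and Slc35d1 (-1.37). Between control culture and quiescent HSC, no minimum fold gave 19 higher and 2 lower, and 56 and 37 of the other genes. The share of all tested genes called without a minimum fold is not given here. In that comparison 73.3% of all tested genes had an unadjusted p below 0.05 (limma), so these counts cannot be read as particular to the listed genes. With UDP-glucose, 0 of the 33 genes were called under any setting run. Alpl was called in none of the fits with no filter, median-of-ratios scaling (where P2ry14 was called, so 1 higher), all 13 libraries together, no variance trend or a minimum log2 fold change of 1 (0 lower each), and leaving out 1 library gave 0 to 1. Chosen after seeing the data, classes of at least 50 cells left hepatocyte-like cells first for 9 genes and stellate-like cells for 2. A mitochondrial maximum of 10% left 382 of 491 hepatocyte-like cells and moved the summed CPM of 9 of 33 genes there beyond the counting interval. Thinning to 1000 UMIs moved 53 of 66 shares of cells with a UMI. The unknown depth limits statements on genes under 1 TPM.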
